A study of Mus musculus with 6 samples.

Results

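The immediate early genes described here were Fos, Fosb, Jun, Junb, Egr1, Egr2, Ier2, Dusp1, Nr4a1 and Atf3. They are 10 of the 37487 gene symbols or unmapped accessions on the array. They were picked by name, and every probe whose RefSeq accession mapped to one of them was kept, giving 12 of 41006 probes. Fosb and Dusp1 had 2 probes each and the other members 1 each. All 12 probes were well above background in both channels of all 6 arrays, and none was saturated. So were 95.9% to 99.6% of all spots per array in the sample channel, and 97.1% to 98.9% in the reference channel. None was lost to the filter on dim probes, which kept 40791 of 41006 probes. Some were dim all the same. The dimmer Fosb probe had background-subtracted sample intensities of 70 to 92, against array medians of 143 to 203.

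The arrays were two-colour Agilent oligonucleotide arrays of mesenteric lymph nodes from adult, naive mice. TB_TNF_KO, the double knockout labelled TB-TNF KO, had 3 arrays and, going by the title of the series, no TNF from T cells or B cells. B_TNF_KO, labelled B-TNF KO, also had 3 arrays and no TNF from B cells, so a B cell deletion was common to both groups and no wild type was analysed here. Each array carried Cy3-labelled RNA from the pooled nodes of 3 mice beside a Cy5-labelled reference pooled from mouse cell lines. Array 2 of TB_TNF_KO was labelled female and the other 5 male; the Cre line or other means of deletion was not given in the sources used here.

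Immediate early genes are transcribed within minutes of a stimulus without new protein synthesis, mainly through MAP kinases acting on serum response factor with its ternary complex partners and on CREB-family factors. Most encode transcription factors, and in lymph nodes antigen receptor engagement, cytokines and tissue handling are all known to induce them. TNF receptors are known to activate JNK, p38 and NF-kB, which feed into several of these promoters.

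Promoters of members at both ends of the observed range of group differences, with Nr4a1 as a member near 0, hold motifs of elements through which such signals can act. Sequences are from RefSeq on GRCm38.p6, 5′ to 3′ on the gene's strand, ending at the base before the start. Capitals mark the core TGACG of the cAMP response element (or its reverse complement CGTCA), the whole element in Dusp1, and in Egr2 also the serum response element core, the CArG box.
Fos, chr12:85473640-85473889, plus strand: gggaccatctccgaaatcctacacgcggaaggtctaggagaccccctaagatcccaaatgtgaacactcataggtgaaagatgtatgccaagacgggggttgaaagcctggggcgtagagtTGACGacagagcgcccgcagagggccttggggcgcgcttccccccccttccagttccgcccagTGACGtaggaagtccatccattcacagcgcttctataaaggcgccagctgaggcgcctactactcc
Dusp1, chr17:26508473-26508722, minus strand: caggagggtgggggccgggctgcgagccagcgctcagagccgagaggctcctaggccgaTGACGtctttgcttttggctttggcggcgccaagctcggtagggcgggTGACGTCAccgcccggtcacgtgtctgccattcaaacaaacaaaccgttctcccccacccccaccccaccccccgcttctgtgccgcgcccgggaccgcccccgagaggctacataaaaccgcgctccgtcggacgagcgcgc
Nr4a1, chr15:101266596-101266845, plus strand: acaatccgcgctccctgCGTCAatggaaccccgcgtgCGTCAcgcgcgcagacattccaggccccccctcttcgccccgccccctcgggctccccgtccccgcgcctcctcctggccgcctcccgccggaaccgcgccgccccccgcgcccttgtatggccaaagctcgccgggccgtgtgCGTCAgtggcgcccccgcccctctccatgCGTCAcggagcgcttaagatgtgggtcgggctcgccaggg
Egr2, chr10:67537789-67537818, plus strand, part of the window: tcctcagtCCATATATGGgcagcgaCGTCA

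Of the 10 members, 8 had an entry in the promoter table (all but Egr1 and Ier2), and motifs were searched on both strands of the 250 bases before each start, among 32851 windows in all. The core TGACG was in the window of 7 of these 8 members (all but Jun), against 17.8% of all windows. The whole element TGACGTCA, which contains that core on both strands, was found in Dusp1 and in 1.55% of all windows. A CArG box was found in Egr2, which has 5 start sites in the table, and in 1.47% of all windows. A member was counted if any of its windows held the motif, whereas the shares are per window. The EGR motif GCGNGGGCG lay in Fosb and Nr4a1 (4.7% of all windows), a kB site in Fos and Fosb (3.9%), and TATAAA in Fos (12.4%). The AP-1 motif TGANTCA was in none of the 8, against 6.75% of all windows. These matches describe letters in a window and do not show binding. Bases further upstream were not searched, so a motif absent here may lie outside the window.

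Before the comparison, the arrays were checked against their labels. Tnf, the targeted gene, read -0.66, -0.63 and -0.84 on TB_TNF_KO arrays 1, 2 and 3, against 0.19, 0.36 and 0.49 on B_TNF_KO arrays 1, 2 and 3 with its brighter probe. The groups did not overlap (difference -1.09, adjusted p = 0.0550), and the dimmer Tnf probe gave -0.26. The sources used here do not place these probes relative to the deletion. Median background-subtracted intensity per array was 143 to 166 in TB_TNF_KO and 158 to 203 in B_TNF_KO in the sample channel, and 315 to 362 against 279 to 282 in the reference channel. Of the 8 lymph node stroma and high endothelial venule markers, 7 lay above the reference on every array, from Il7 at 0.52 to 1.03 to Glycam1 at 4.83 to 5.68, and Pdpn lay below it at -0.93 to -0.79. TB_TNF_KO arrays 1 and 2 differed little more in their sample channel than in the shared reference. The SD over probes of their difference was 0.187 in the sample channel and 0.169 in the reference channel. Over all pairs of arrays the reference SD reached up to 0.219. B_TNF_KO arrays 1 and 2, at 0.198 in the sample channel, also lay under that bound, so it alone did not single out the TB_TNF_KO pair. The ratio of the sample to the reference SD was 1.10 for TB_TNF_KO arrays 1 and 2, against 1.23 to 1.79 for the 14 other pairs of arrays. Eif2s3y, a Y-linked gene, had log2 ratios of -2.81, -2.84 and 1.49 on TB_TNF_KO arrays 1, 2 and 3, against 0.59, 0.88 and 1.83 on B_TNF_KO arrays 1, 2 and 3, so the library labelled TB_TNF_KO 1, male by its label, resembled the female one. Arrays 1 and 2 of TB_TNF_KO were therefore averaged as 1 sample, so n was 2 in TB_TNF_KO and 3 in B_TNF_KO. Nothing in the labels says beyond this that pools came from separate animals, so p-values measure the spread between these samples, which may be partly technical.

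Log2 ratios below are lymph node over reference, and a difference is the TB_TNF_KO value minus the B_TNF_KO value, given with limma's SE. Adjusted p-values come from limma with Benjamini-Hochberg adjustment over all 40791 probes tested. None of the 12 member probes passed an adjusted p of 0.05. In the same fit 0% of all probes passed as higher in TB_TNF_KO and 0.0147% as lower. Without adjustment, at p under 0.05, Fos had the higher ratio and Egr1 and Egr2 the lower ones by the brightest probe of each gene. That is 1 and 2 of 10 members, against 2049 (5.02%) and 4552 (11.2%) of all probes. Because nodes were measured in bulk, fewer cells of a type and less RNA per cell cannot be told apart in any of these values. The software read all scans of a group on 1 day of its own, so that day and genotype cannot be told apart.

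**Figure D1:**
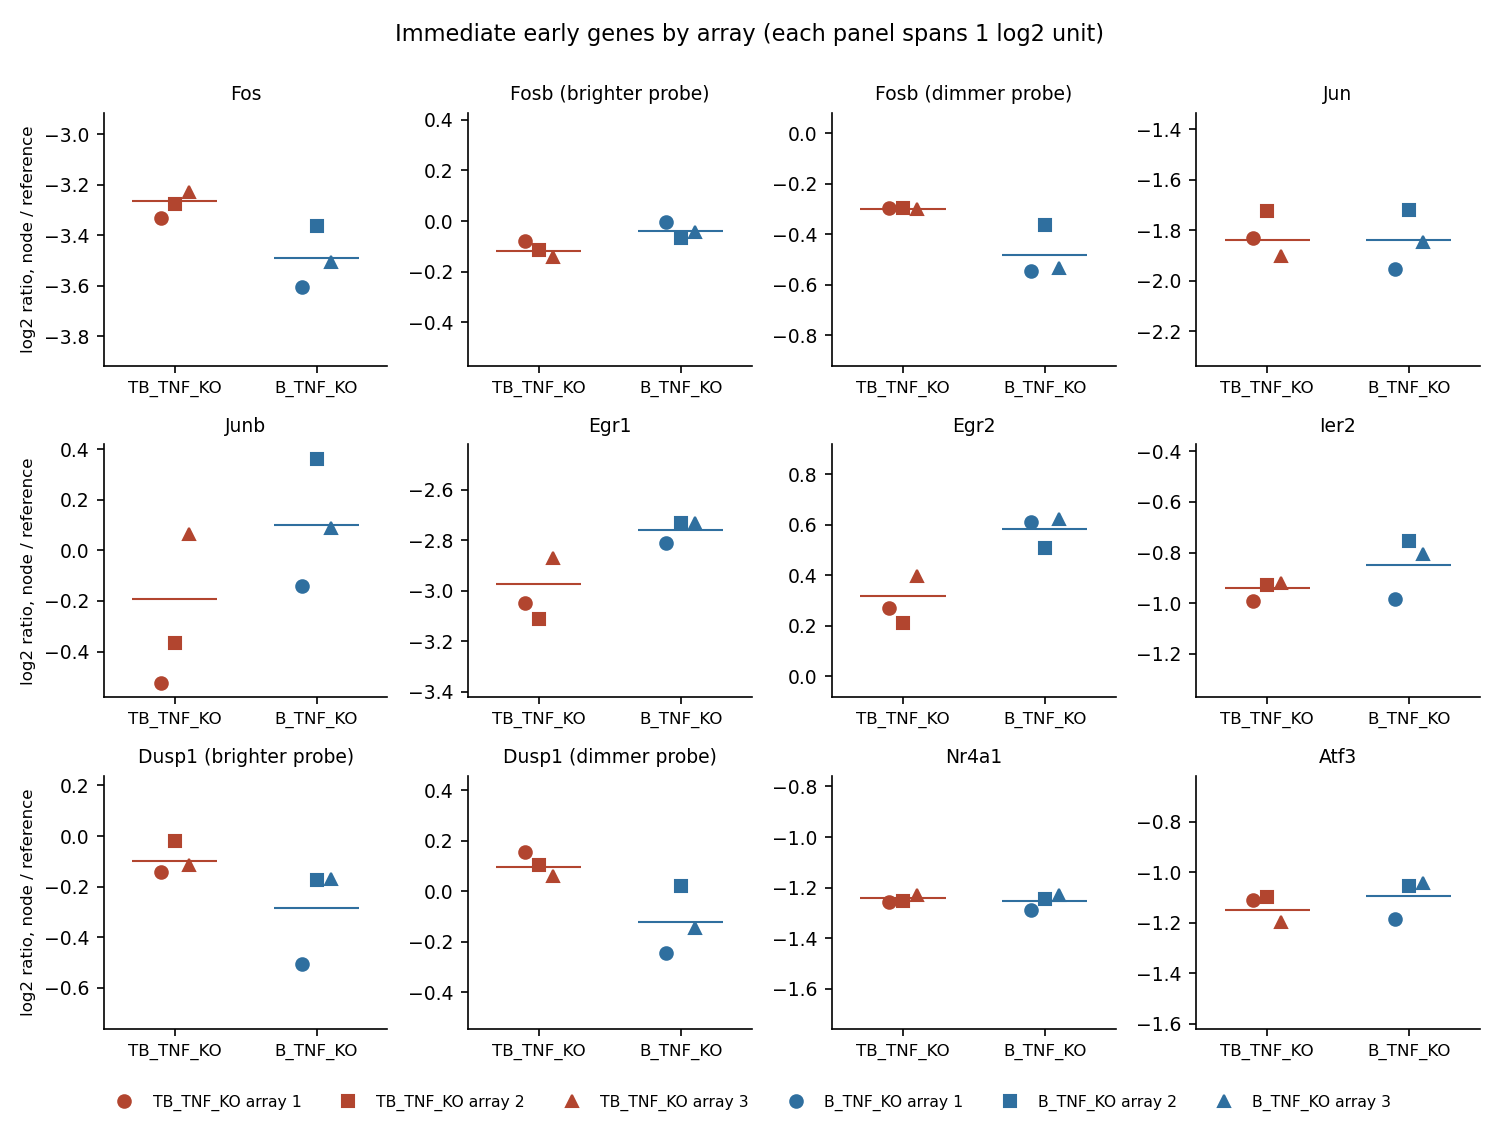
Log2 ratio of lymph node over reference (y axis) for each of the 12 member probes on every array; each panel spans 1 log2 unit around its own values, and lines are group means, with TB_TNF_KO arrays 1 and 2 counted as 1 sample. Egr1 and Egr2 lay below and Fos and Dusp1 above B_TNF_KO on all TB_TNF_KO arrays, while Junb spread over 0.59 within TB_TNF_KO.

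Fos encodes the c-Fos subunit of the AP-1 transcription factor, which binds DNA as a dimer with a Jun protein. Its log2 ratio was -3.33, -3.28 and -3.23 on TB_TNF_KO arrays 1, 2 and 3, against -3.61, -3.36 and -3.51 on B_TNF_KO arrays 1, 2 and 3. The groups did not overlap, although TB_TNF_KO array 1 and B_TNF_KO array 2 were close. The difference was 0.23 (SE 0.08, 95% interval 0.03 to 0.42, adjusted p = 0.241). By channel, the sample differed by 0.07 and the reference, which held the same RNA on every array, by -0.15. Over all probes, 22.4% differed between the groups in the sample channel and 21.4% in the reference channel at an unadjusted p under 0.05. With the sample channel normalised on its own, the Fos difference was -0.02 (adjusted p = 0.935). Background-subtracted intensity for Fos, not scaled between arrays, was 108, 100 and 148 in TB_TNF_KO nodes and 130, 136 and 169 in B_TNF_KO nodes. The reference gave 3459 to 3577 on the TB_TNF_KO arrays and 3520 to 3629 on the B_TNF_KO arrays.

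Fosb, a Fos relative that also pairs with Jun proteins, was read by 2 probes whose ratios differed in opposite directions. They are shown because the same gene and accession gave both signs; only the first 30 of 60 bases of each are printed.
Fosb, brighter probe A_66_P104962, chromosome 7: ctggggatttgagtcagactttctggctgt
Fosb, dimmer probe A_66_P139918, chromosome 7: ttacttctgtaagtaagtgtgactgggtgg
The brighter Fosb probe had log2 ratios of -0.08, -0.11 and -0.14 on TB_TNF_KO arrays 1, 2 and 3, against -0.0044, -0.07 and -0.04 on B_TNF_KO arrays 1, 2 and 3. Its difference was -0.08 (SE 0.04, adjusted p = 0.453), with 0.07 in the sample channel and 0.15 in the reference channel. The dimmer Fosb probe read -0.30 on each of the 3 TB_TNF_KO arrays, against -0.55, -0.36 and -0.53 on B_TNF_KO arrays 1, 2 and 3. Its difference was 0.18 (SE 0.07, adjusted p = 0.266), with 0.27 in the sample channel and 0.09 in the reference channel. Neither probe's groups overlapped in the ratio. The sample channel difference was above 0 for both Fosb probes, and only the ratio of the brighter one was below 0.

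Jun and Junb encode the Jun partners of AP-1, of which JunB can restrain c-Jun activity. Jun had log2 ratios of -1.83, -1.72 and -1.90 on TB_TNF_KO arrays 1, 2 and 3, against -1.95, -1.72 and -1.85 on B_TNF_KO arrays 1, 2 and 3. The group means of Jun were -1.84 ± 0.09 (SD, n = 2) in TB_TNF_KO and -1.84 ± 0.12 (SD, n = 3) in B_TNF_KO. The groups overlapped, and the 95% interval of the Jun difference ran from -0.20 to 0.20 (adjusted p = 0.999). Junb read -0.52, -0.37 and 0.07 on TB_TNF_KO arrays 1, 2 and 3, against -0.14, 0.36 and 0.09 on B_TNF_KO arrays 1, 2 and 3. Array 3 of TB_TNF_KO stood with the B_TNF_KO arrays, and B_TNF_KO array 1 lay below it. The Junb difference was the largest in size of the 10 members at -0.29, but its SE of 0.19 was also the largest (adjusted p = 0.536, 95% interval -0.76 to 0.18). It was -0.55 without TB_TNF_KO array 3, -0.16 without B_TNF_KO array 2 and -0.04 without both TB_TNF_KO arrays 1 and 2. In the sample channel the Junb arrays did not overlap, at 8.46, 8.42 and 8.56 log2 units in TB_TNF_KO and 8.66, 9.03 and 8.97 in B_TNF_KO. Of all probes, 22.4% differed in that channel at an unadjusted p under 0.05 in limma. With the sample channel normalised on its own, the Junb difference was -0.36 (adjusted p = 0.136).

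Egr1 and Egr2 are zinc finger factors that bind GC-rich sites, and in lymphocytes Egr2 is known to restrain responses of T cells. Egr2 had log2 ratios of 0.27, 0.21 and 0.40 on TB_TNF_KO arrays 1, 2 and 3, against 0.61, 0.51 and 0.62 on B_TNF_KO arrays 1, 2 and 3. All TB_TNF_KO arrays lay below all B_TNF_KO arrays. The means were 0.32 ± 0.11 (SD, n = 2) in TB_TNF_KO and 0.58 ± 0.06 (SD, n = 3) in B_TNF_KO. The difference of -0.26 (SE 0.07, 95% interval -0.42 to -0.10) was 1.20-fold lower in TB_TNF_KO and had the smallest p among the members (unadjusted 0.00732, adjusted p = 0.134). It lay in the sample channel, at -0.30, with -0.04 in the reference channel. With the replicate number as a block, the Egr2 difference was -0.29 and passed (adjusted p = 0.0223), as it did with all 6 arrays counted separately (adjusted p = 0.0374). Both of those fits counted TB_TNF_KO arrays 1 and 2 as 2 samples. The block rests on pairs of arrays with the same number, and TB_TNF_KO array 1 deviated more like B_TNF_KO array 2 (r = 0.426 across probes) than like array 1 (r = 0.134). With the block, 1.81% of all probes passed as higher and 6.21% as lower, and with 6 arrays counted separately 1.46% and 4.58%.

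Egr1 read -3.05, -3.11 and -2.87 on TB_TNF_KO arrays 1, 2 and 3, against -2.81, -2.73 and -2.73 on B_TNF_KO arrays 1, 2 and 3. The groups did not overlap, and TB_TNF_KO array 3 and B_TNF_KO array 1 were closest. The difference was -0.21 (SE 0.07, 95% interval -0.39 to -0.04, adjusted p = 0.229), with -0.24 in the sample channel and -0.03 in the reference channel. It did not pass with the replicate block either (-0.25, adjusted p = 0.0591). Without both TB_TNF_KO arrays 1 and 2 it was -0.11 (adjusted p = 0.686), and without TB_TNF_KO array 3 it was -0.32 (adjusted p = 0.211). Background-subtracted intensity for Egr1 was 1070, 853 and 1540 in TB_TNF_KO nodes, against 1924, 1681 and 2361 in B_TNF_KO nodes. These intensities were not scaled between arrays. Those of Nr4a1, whose ratio differed by 0.01, were also lower in TB_TNF_KO, at 1518, 1429 and 1874 against 2197, 1887 and 2625.

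Nr4a1 encodes Nur77, an orphan nuclear receptor used as a readout of antigen receptor signalling in T and B cells. It was the most even member. Its log2 ratio was -1.26, -1.25 and -1.23 on TB_TNF_KO arrays 1, 2 and 3, against -1.29, -1.24 and -1.23 on B_TNF_KO arrays 1, 2 and 3. The groups overlapped, and the difference of 0.01 had a 95% interval of -0.10 to 0.12 (adjusted p = 0.931).

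Atf3 encodes a stress-inducible factor of the ATF/CREB family that can repress inflammatory genes. It read -1.11, -1.10 and -1.20 on TB_TNF_KO arrays 1, 2 and 3, against -1.18, -1.05 and -1.04 on B_TNF_KO arrays 1, 2 and 3. The groups overlapped in the ratio (difference -0.06, 95% interval -0.21 to 0.10, adjusted p = 0.733). By channel, the Atf3 difference was -0.21 in the sample and -0.16 in the reference. Ier2, a nuclear protein induced early by growth factors, read -0.99, -0.93 and -0.92 on TB_TNF_KO arrays 1, 2 and 3, against -0.98, -0.76 and -0.81 on B_TNF_KO arrays 1, 2 and 3. Only B_TNF_KO array 1 lay among the TB_TNF_KO arrays (difference -0.09, 95% interval -0.28 to 0.09, adjusted p = 0.630).

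Dusp1 encodes a nuclear phosphatase that switches off p38 and JNK, the kinases that help to induce these genes. Its 2 probes, shown for comparison with those of Fosb, gave the same direction.
Dusp1, brighter probe A_66_P105290, chromosome 17: tgagttccactgagttcctaagcagtcaca
Dusp1, dimmer probe A_66_P122919, chromosome 17: atcgaccgactttttctggagaaccgcaga
The brighter Dusp1 probe read -0.14, -0.02 and -0.12 on TB_TNF_KO arrays 1, 2 and 3, against -0.51, -0.17 and -0.17 on B_TNF_KO arrays 1, 2 and 3. Its difference was 0.19 (SE 0.11, adjusted p = 0.482), and 0.07 without B_TNF_KO array 1, the one low array. The dimmer Dusp1 probe read 0.16, 0.10 and 0.06 on TB_TNF_KO arrays 1, 2 and 3, against -0.24, 0.02 and -0.14 on B_TNF_KO arrays 1, 2 and 3. Its difference was 0.22 (SE 0.08, adjusted p = 0.276). All TB_TNF_KO arrays lay above all B_TNF_KO arrays for both probes.

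**Figure D2:**
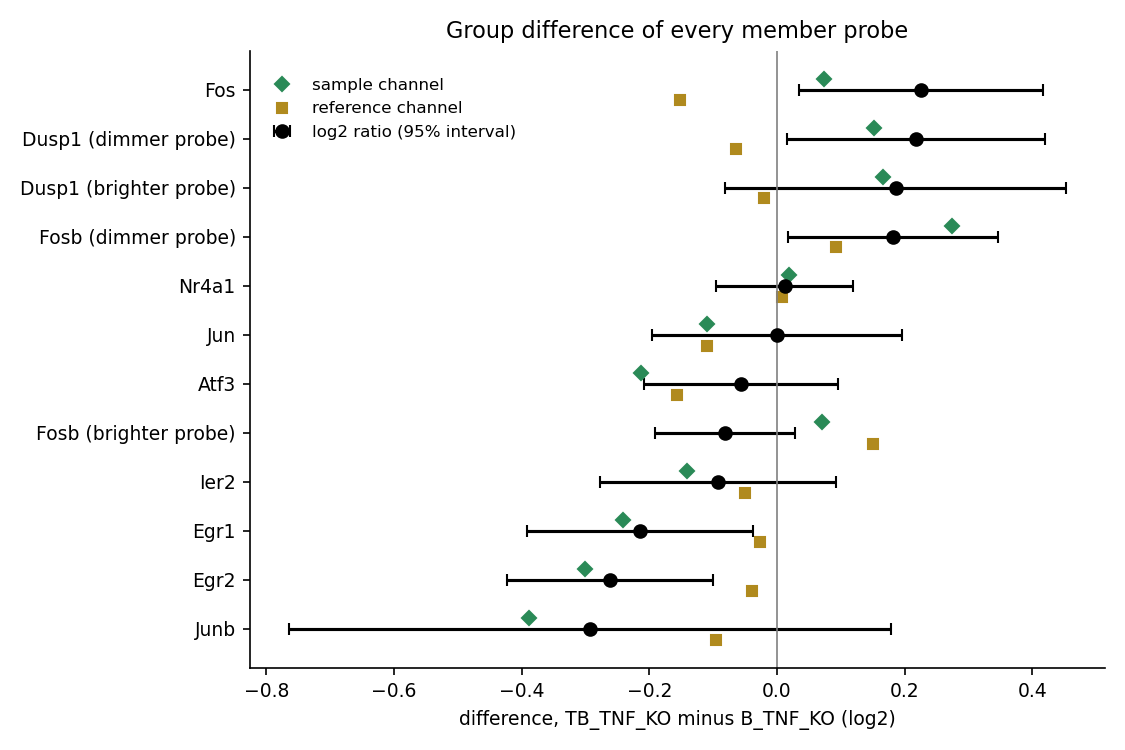
Difference of TB_TNF_KO minus B_TNF_KO on the log2 scale (x axis) for the 12 member probes (rows); black points are log2 ratios with 95% intervals from limma, diamonds the sample channel and squares the reference channel. The Egr1 and Egr2 differences lay in the sample channel (-0.24 and -0.30), whereas for Fos the reference channel (-0.15) moved more than the sample channel (0.07).

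Across the 12 probes the arrays of the groups did not overlap for 4 with higher and 3 with lower ratios in TB_TNF_KO, and 5 overlapped. By the brightest probe of each gene these were Fos and Dusp1 (higher) and Egr1, Egr2 and Fosb (lower), or 2 and 3 of 10, against 10.6% and 17% of all probes. The members' median difference was -0.07, against -0.01 for all probes tested. The median size of the difference, regardless of sign, was 0.139 for the 10 members and 0.0615 for all probes. The members thus did not share a direction, with values above 0 for 4 and below 0 for 6.

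Against the cell line reference, 11 of the 12 probe means over the 6 arrays were below 0. The median over all probes was also just below 0, at -0.0071, so this count alone does not set the members apart. On every array 9 of the 12 probes were below 0. Fos was furthest below, at a mean log2 ratio of -3.39 (10.4-fold), and only 0.135% of all probes had a lower mean. Its background-subtracted sample intensity lay below the array median on all 6 arrays. How far this fold depends on the background correction was not tested. Egr1 followed at -2.88 (7.38-fold), then Jun at -1.83 (3.55-fold), Nr4a1 at -1.25, Atf3 at -1.11 and Ier2 at -0.90. Both Fosb probes, both Dusp1 probes and Junb lay between -0.39 and -0.01. Of all probes, 12.7% had a lower mean than the dimmer Fosb probe, the lowest of these. For the dimmer Dusp1 probe, the highest of these, it was 49.7%. Egr2 was the exception, above 0 on all 6 arrays with a mean of 0.44 (1.35-fold). These ratios compare nodes with cultured cell lines and were measured in 1 dye orientation, so dye bias cannot be told apart from them.

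Arrays within a group were compared next, because early genes can differ between pools of one genotype. Within TB_TNF_KO, arrays 1 and 2 agreed closely for the members. Their differences ran from -0.16 (Junb) to 0.06 (Egr1), with a median size of 0.0576, against 0.0501 for all probes. Array 3 differed from the mean of arrays 1 and 2 by 0.51 for Junb, 0.21 for Egr1 and 0.16 for Egr2, and by -0.13 to 0.08 for the other members. The ratios of Junb, Egr1 and Egr2 were thus each higher on the third TB_TNF_KO array than on the first pair. For Junb this contrast was 0.12 in the sample channel and -0.39 in the reference channel. Most of the Junb contrast thus lay in the reference, which held the same RNA on every array. In the sample and reference channels it was 0.32 and 0.11 for Egr1, and 0.15 and -0.01 for Egr2.

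Within B_TNF_KO, array 1 stood apart from array 2 over most members. The log2 ratio of array 1 was lower for 10 of the 12 member probes, with a median difference of -0.21, whereas 52.5% of all probes were lower and their median was -0.0067. The exceptions were Egr2 at 0.10 and the brighter Fosb probe at 0.06. Junb differed most, at -0.50, followed by Dusp1 at -0.33 and -0.26 with its 2 probes, Fos at -0.24, and Jun and Ier2 at -0.23 each. In the sample channel 9 of 12 member probes were lower on array 1 (median -0.11), against 51.2% of all probes (median -0.0047). In the reference channel 2 of 12 were lower (median 0.07), against 44.9% of all probes (median 0.0112). Array 3 differed from the mean of arrays 1 and 2 by -0.08 to 0.17.

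The range of the log2 ratio over the 3 arrays of a group shows which members' ratios varied. Junb spanned 0.59 in TB_TNF_KO and 0.50 in B_TNF_KO, and only 0.907% and 2.07% of all probes spanned as much in those groups. In the sample channel Junb spanned 0.14 in TB_TNF_KO and 0.38 in B_TNF_KO, and in the reference channel 0.49 and 0.21. Nr4a1 spanned 0.03 and 0.06, less than the medians over all probes of 0.102 in TB_TNF_KO and 0.116 in B_TNF_KO. Egr1 spanned 0.24 in TB_TNF_KO and 0.08 in B_TNF_KO. The reverse held for Fos, with 0.10 in TB_TNF_KO and 0.24 in B_TNF_KO.

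**Figure D3:**
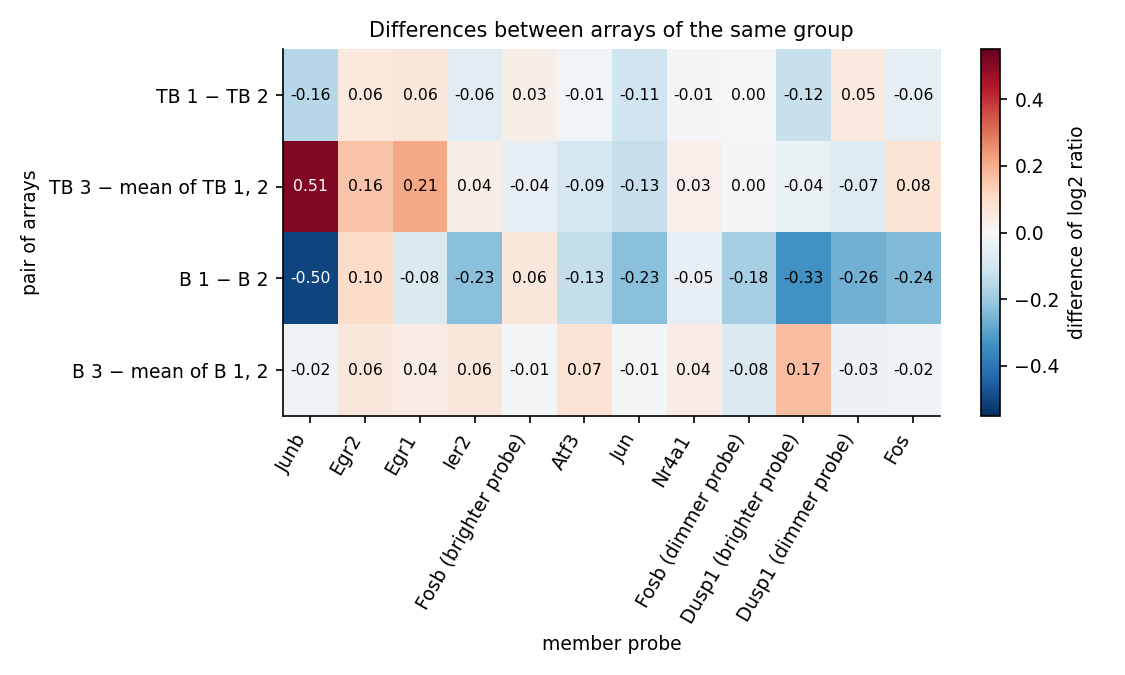
Difference of log2 ratio (colour and printed value) between arrays of the same group (rows; TB is TB_TNF_KO and B is B_TNF_KO) for the 12 member probes (columns, from the lowest to the highest group difference). Array 1 of B_TNF_KO lay below array 2 for 10 of 12 probes, and Junb had the largest values, 0.51 in TB_TNF_KO and -0.50 in B_TNF_KO. The Junb value of 0.51 came with 0.12 in the sample channel and -0.39 in the reference channel.

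Related lists were set beside this contrast of B_TNF_KO arrays 1 and 2. Of 15 heat shock and cell stress genes measured, 13 had a lower ratio on array 1, with a median of -0.30. Hspb1, a small heat shock protein named here after its values were seen, read -0.87 on B_TNF_KO array 1, against 0.59 and 0.29 on arrays 2 and 3. Of 14 feedback regulators, 12 were lower on array 1 (median -0.11), as were 21 of 29 other early response genes (median -0.04) and 13 of 23 upstream kinases and factors (median -0.05). The summed intensity of 8 exocrine pancreas markers also differed, at 86571 on B_TNF_KO array 1, 254311 on array 2 and 3607 on array 3. On TB_TNF_KO arrays 1, 2 and 3 it was 353959, 384151 and 3625. Its part in the member values was not tested.

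Genes around the members in the pathway came from 4 other lists, of which no gene passed an adjusted p of 0.05 in limma with TB_TNF_KO arrays 1 and 2 as 1 sample. With all 6 arrays counted separately, 4 of 29 other early response genes, 5 of 24 upstream genes, 2 of 14 feedback regulators and 2 of 15 heat shock and stress genes passed, as Egr2 did among the members. These were Klf6, Plk2, Creb1, Rps6ka1, Dusp8 and Ddit4 (higher) and Rgs2, Gadd45b, Elk3, Map2k1, Map2k4, Socs3 and Gadd45a (lower), against 1.46% and 4.58% of all probes. Map2k1 had a value on array 3 alone of B_TNF_KO, so its call rests on that array. The counts at an unadjusted p under 0.05 that follow stand against 5.02% higher and 11.2% lower over all probes. Other early response genes gave 29 measured of 33 listed, of which 5 were higher and 4 lower at an unadjusted p under 0.05. Rgs2, a regulator of G protein signalling, read 0.36, 0.24 and 0.30 on TB_TNF_KO arrays 1, 2 and 3, against 0.71, 0.64 and 0.73 on B_TNF_KO arrays 1, 2 and 3. Its difference of -0.40 (SE 0.05) came nearest to the threshold (adjusted p = 0.0550) and the arrays were well apart. Klf6, a zinc finger factor, had the largest difference of this list, 0.76 (SE 0.16, adjusted p = 0.0983). It read 0.32, 0.20 and 0.18 on TB_TNF_KO arrays 1, 2 and 3, against -0.43, -0.31 and -0.87 on B_TNF_KO arrays 1, 2 and 3. Plk2, a polo-like kinase, differed by 0.27 (adjusted p = 0.0906). Fosl2, a Fos relative, differed by 0.26 with its brighter probe (adjusted p = 0.120) and by 0.06 with its other probe. The list as a whole had 15 values above 0 and 14 below, with a median of 0.02.

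Upstream kinases and factors gave 24 measured of 31 listed, with 2 higher and 6 lower at an unadjusted p under 0.05 and a median of -0.07. Map2k1, read on array 3 alone of B_TNF_KO, was among those 6. Creb1, the factor that binds the cAMP response element, read 0.99, 0.94 and 0.95 on TB_TNF_KO arrays 1, 2 and 3, against 0.52, 0.57 and 0.62 on B_TNF_KO arrays 1, 2 and 3. Its difference was 0.39 (SE 0.05, adjusted p = 0.0550), but a second Creb1 probe gave -0.15. Rps6ka1, a kinase below ERK, differed by 0.43 (adjusted p = 0.113). Elk3, a ternary complex factor that binds beside serum response factor, differed by -0.30 (adjusted p = 0.0802). Map2k4, a kinase that activates JNK, differed by -0.29 (adjusted p = 0.111), with 0.01 for its second probe.

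Feedback regulators gave 14 measured of 20 listed, with 1 higher and 1 lower at an unadjusted p under 0.05 and a median of -0.03. These were Dusp8, a phosphatase of JNK and p38, at 0.20 (adjusted p = 0.112), and Socs3, an inhibitor of cytokine receptor signalling, at -0.20 (adjusted p = 0.134). Spry2 and Dusp10, the next of this list, differed by -0.11 and -0.10. Heat shock and stress genes gave 15 measured of 18 listed, with 1 higher and 2 lower and a median of 0.07. Ddit4, an inhibitor of mTORC1 induced by stress, differed by 0.32 (SE 0.05, adjusted p = 0.0605), and Gadd45a, a DNA damage response gene, by -0.35 (SE 0.06, adjusted p = 0.0758). Hspa8, the constitutive cytosolic chaperone, differed by 0.35 (adjusted p = 0.327), with 0.39 to 0.53 for its 4 other probes. Hspe1, a mitochondrial chaperonin, differed by -0.16 (adjusted p = 0.288).

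**Figure D4:**
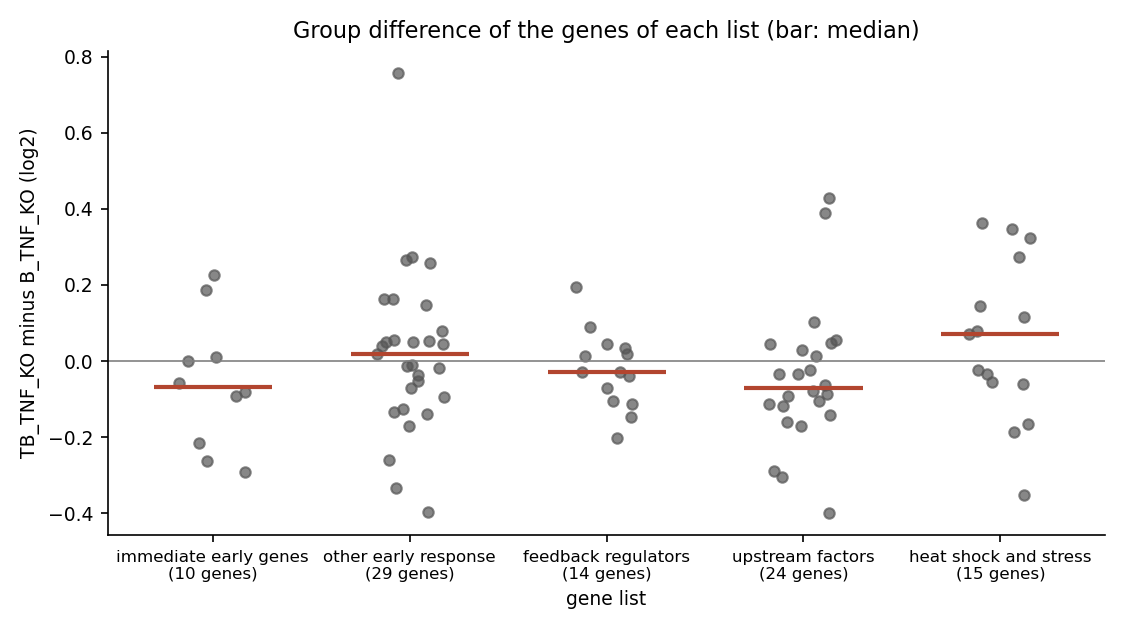
Difference of TB_TNF_KO minus B_TNF_KO on the log2 scale (y axis) for the immediate early genes and 4 related lists (x axis); each point is the brightest probe of a gene and bars are list medians. List medians lay between -0.07 and 0.07, and Klf6 at 0.76 was the highest point.

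The genes whose values followed Fos most closely over the 6 arrays included Zfp148 and Mettl16. Their log2 ratios, each centred on its mean, differed from those of Fos by 0.0171 and 0.0254 on average. For Egr1 they were Pacsin1, Bcl6 and Tbl1xr1, with mean distances of 0.0093, 0.0109 and 0.0154. Bcl6 read 0.75, 0.68 and 0.94 on TB_TNF_KO arrays 1, 2 and 3, against 1.02, 1.07 and 1.09 on B_TNF_KO arrays 1, 2 and 3. These genes were chosen for their likeness on 6 arrays, and all points share the reference channel.

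Markers of other cells moved with the groups as follows. The summed intensity of 5 of 6 fibroblast markers measured was 34827 to 36173 in TB_TNF_KO and 36912 to 40380 in B_TNF_KO. That of 5 of 6 blood endothelium markers was 3729 to 4014 in TB_TNF_KO and 4510 to 4809 in B_TNF_KO. Neither sum overlapped, and both were lower in TB_TNF_KO. The median log2 ratio of the fibroblast markers did overlap, at -1.74 to -1.69 in TB_TNF_KO and -1.70 to -1.60 in B_TNF_KO. That of the blood endothelium markers did not, at 1.25 to 1.51 in TB_TNF_KO and 1.64 (array 1), 1.63 (array 2) and 1.83 (array 3) in B_TNF_KO. The sums of 7 of 8 B cell markers (43929 to 54129 against 49014 to 50646) and 7 of 8 T cell markers (49282 to 52545 against 51537 to 56962) overlapped between TB_TNF_KO and B_TNF_KO. Their median log2 ratios did not overlap and were lower in TB_TNF_KO, as the Egr1 and Egr2 ratios were. They were 2.10 to 2.44 in TB_TNF_KO and 2.76 to 2.83 in B_TNF_KO for B cell markers. For T cell markers they were 2.90 to 2.95 in TB_TNF_KO and 3.03 to 3.14 in B_TNF_KO. The 6 of 7 adipocyte markers summed to 68595, 59204 and 106086 on TB_TNF_KO arrays 1, 2 and 3, against 111253, 106995 and 103292 on B_TNF_KO arrays 1, 2 and 3. The TB_TNF_KO array with the high sum, array 3, also had the highest log2 ratios of that group for Junb, Egr1 and Egr2. The same held by smaller margins for Fos, Ier2 and Nr4a1. For Junb most of that contrast lay in the reference channel. Array 3 had the lowest log2 ratios of the group for Jun, Atf3, both Fosb probes and the dimmer Dusp1 probe. Adipocyte markers were not alone in setting TB_TNF_KO array 3 apart. It also had that group's highest B cell, T cell and smooth muscle sums, and its lowest sums of the other lists measured. In B_TNF_KO, array 1 had the highest adipocyte sum but lower ratios than array 2 for 10 of 12 member probes. The sums and the median ratios of the stroma and high endothelial venule, macrophage and monocyte, granulocyte and smooth muscle lists overlapped between the groups, and none of 4 erythroid markers was measured. Single markers within these lists still separated by log2 ratio. In TB_TNF_KO, Cxcl13 (3.38 to 3.65 against 4.87 to 5.15) and Il7 (0.52 to 0.64 against 0.90 to 1.03) were lower. Ccl21a (4.60 to 4.99 against 3.87 to 4.49) and Ccl21b were higher, and Ccl19, Glycam1, Madcam1 and Pdpn overlapped. Adgre1 and Siglec1 were also lower, and S100a8 and Ltf higher, without overlap. No measured marker had a sum of 0, and the part of these cells in the member values was not tested.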

How the data were processed

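Per the file headers, Agilent Feature Extraction A.7.5.1 turned the scans into intensities and subtracted a local background. The deposited scanner files list a mean and a background intensity per spot and channel, and a log10 ratio. The values of the deposited series table are on a log10 scale and tracked processed Cy3 signals (r across probes, which are not independent, 0.993 to 0.996; column medians 2.98 to 2.99). Its other steps stay unknown.

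Intensities were corrected with normexp (offset 50) and normalised by loess within array (limma 3.58.1, R 4.3.3), with control spots at weight 0 and 228 outlier spots left out. Log2 ratios are sample over reference, computed here from the deposited intensities. Probes were kept where Cy3 was well above background on 3 or more arrays. Accessions gave 15294 probes a symbol through RefSeq (GRCm38.p6), and 25712 had none. Channel values were scaled with Aquantile. Groups were compared with lmFit and eBayes, 2 against 3 samples. On simulated data of 40584 probes for this comparison, 90 of 100 changes of 1 and 66 of 100 of 0.5 (log2) were found, with 6 false calls. In the measured data 0 probes passed as higher and 6 as lower. Tnf, at a difference of -1.09, did not pass (adjusted p = 0.0550 with limma). The simulated shares may thus not hold for these arrays. Same-numbered arrays of the 2 groups deviated together (r 0.134, 0.525 and 0.621, against -0.575 to 0.426 for the other pairs). Their numbers were taken as pairs because each of these 3 r exceeded 0.1, which is weak for number 1, and the labels only share numbers. Precision is limited by the 6 arrays.

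The text names all members, up to 4 genes per other list by smallest unadjusted p, and the 3 genes most like Fos and Egr1 with a range of at least 50% of theirs; 1 gene that this rule took is not reported here. Members, lists and motifs were chosen with earlier results of these data known. The alternatives covered background, normalisation, channel, probe filters, spread model, GC content, the replicate block and each replicate left out. Figures used matplotlib 3.10.9 in Python 3.11.15.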

Additional observations from a re-analysis of the deposited data

How the results depend on the processing

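Over 22 alternatives, the differences of Egr1, Egr2, Junb and Ier2 stayed below 0 and that of Dusp1 above 0. Egr2 passed the threshold in 3 (adjusted p 0.0374 with 6 arrays, 0.0223 with the replicate block at -0.29, 0.0243 with the replicate block and GC correction at -0.29). No other member passed in any. The replicate block changed no other member's call. The members' median stayed between -0.13 and -0.02. Some differences changed sign. Jun gave -0.0408 with processed signals, -0.0295 with median centring, -0.14 with the sample channel alone, -0.0356 with the authors' deposited table, -0.0126 with array weights, and -0.0626 without both TB_TNF_KO replicates 1 and 2. With 1 replicate left out, Jun ranged from -0.0557 to 0.0632 and Nr4a1 from -0.0061 to 0.0249. Nr4a1 gave -0.12 with median centring and -0.0011 with the replicate block and GC correction. Atf3 gave 0.0185 with no background subtraction. Fos gave -0.0173 and Fosb 0.10 with the sample channel alone. The cause of these changes was not tested.

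The counts of all probes, 0 higher and 6 lower, depended on the setting. They were 597 and 1868 with 6 arrays, 738 and 2534 with the replicate block, 686 and 2161 with the replicate block and GC correction, 193 and 211 with the sample channel alone, 148 and 409 with a trended robust prior, and 98 and 311 with array weights. The lower count was 0 with no background subtraction, 1 with processed signals, 0 with the authors' deposited table and 0 without both TB_TNF_KO replicates 1 and 2. With 1 replicate left out it ranged from 0 to 5, at 1, 0 and 3 without B_TNF_KO replicates 1, 2 and 3, and 5, 3 and 0 without TB_TNF_KO replicates 1, 2 and 3. All member probes were well above background, as nearly all spots were, and the number of samples limits their precision.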
